A study of Homo sapiens with 6 samples.

Results

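Cholesterol is built from acetyl-CoA in a long chain of enzymes, and the genes for most of these enzymes are read together under the transcription factor SREBP2. When sterol in the membrane of the endoplasmic reticulum is low, the escort protein SCAP carries SREBP2 to the Golgi, where it is cut and its active part goes to the nucleus; when sterol is high, INSIG proteins hold SCAP and SREBP2 back. Cells also take sterol up with lipoproteins, release it from the lysosome through NPC1, move it between membranes with transfer proteins such as STARD4, and send it out through ABCA1, which the oxysterol-sensing LXR receptors switch on.

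The genes described here are 27 genes of this system, taken by name from a list and found in full among the 26475 genes of the table over all libraries. By role, 8 act in the mevalonate and isoprenoid steps, 12 in the sterol steps from squalene to cholesterol, 4 in SREBP2 regulation and 3 in sterol transfer, lysosomal release and export. The list does not hold every enzyme of the pathway. It was chosen with earlier results of these data known, so it is not independent of the values below. All 27 were among the 14627 genes tested.

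Messenger RNA was measured in 6 libraries of human lung cancer cells, 2 each of the line PC9 and of the lines labelled PC9-BrM4 and PC9-AMG. PC9 is an established lung adenocarcinoma line, and the other names mark derivatives of it. All 3 groups carry the treatment label "cultured in MGS", known from the study as a mixed-glial culture on a soft substrate, so no group grown without it was analysed here. The labels expand none of MGS, BrM4, AMG and the word "mix" in the library names, and do not tell whether a derivative is a clone or whether RNA of other cells could be in the libraries. Nothing in them says that the 2 libraries of a line are separate cultures, so the p-values measure the spread between these libraries, which may be technical. Expression is given as TPM (a gene's share of a library's transcripts on a fixed total, corrected for transcript length), so levels of different genes can be set side by side. Differences are between means of log2(TPM + 1) and understate the change of genes near 1 TPM; a gene is called, and said to have risen or fallen, at a Benjamini-Hochberg adjusted p under 0.05 in limma over all tested genes. Since these are bulk samples, fewer cells making an RNA and less of it per cell cannot be told apart.

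Read counts were not used here, so the depth is unknown; coverage at 1 TPM ran from 0.606 to 0.822 reads per base across libraries. Profiles correlated between 0.986 and 0.990 within a line and between 0.967 and 0.981 across lines (Pearson's r of log2(TPM + 1) over the tested genes, which share each library's scaling). All 6 epithelial markers were at 1 TPM or more in every library, with a summed level of 15242 to 15506 TPM in PC9, 11355 to 11866 in PC9-BrM4 and 13297 to 13792 in PC9-AMG, KRT19 being the highest. Of 6 lung markers, SFTPB, SFTPC, SFTPA1 and SLC34A2 were listed at 0 in every group, and the summed level did not pass 1.69 TPM. The astrocyte list of 8 summed to 22.6 to 23.7 TPM in PC9, 20.7 to 23.5 in PC9-BrM4 and 30.3 to 34.0 in PC9-AMG, most of it ALDH1L1, with GFAP and S100B listed at 0 in every group. The microglia list of 8 summed to 10.4 to 10.8, 16.5 to 18.2 and 13.0 to 16.4 TPM, with AIF1, CX3CR1, P2RY12, TMEM119 and C1QA at 0, and the oligodendrocyte list of 6 to 23.9 to 24.7, 22.2 to 26.8 and 20.7 to 21.7 TPM, with MOG and OLIG2 at 0. The part of RNA from other cells in the results below was not tested.

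Of the 27 genes, 24 had RefSeq promoter windows on GRCh38.p14, 32 windows in all, each running from 250 bases before a start site to 50 after it. The windows were searched on both strands for the sterol response element TCACNCCAC, the NF-Y box CCAAT, the GC box GGGCGG and the E-box CACGTG. No window was found for ACAT2, FDFT1 and SQLE. An NF-Y box, a short motif known as a partner of SREBP2 sites, stood in a window of 17 of the 24 genes (70.8%), against 42.6% of the 10294 tested genes and 39.7% of all 27195 genes with windows, and 11 of the 24 had at least 2 in a window. The GC box stood in 22 of 24 (91.7%, against 75.9% of tested and 48.4% of all genes) and the E-box in 5 of 24 (20.8%, against 12.4% and 8.79%). The sterol response element in this spelling was found for 1 of 24, SREBF2 (4.17%, against 1.40% and 1.39%). These are matches of letters, not shown sites, and genes with several windows had more bases searched.

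Printed here are the 250 bases upstream of a start site for 5 genes with different patterns across the lines. IDI1 (chr10:1049120-1049369, minus strand) and MSMO1 (chr4:165327419-165327668, plus strand) are enzyme genes that rose in PC9-BrM4, SREBF2 (chr22:41832855-41833104, plus strand) is the regulator, which was not called, and INSIG2 (chr2:118088221-118088470, plus strand) and STARD4 (chr5:111512536-111512785, minus strand) are the genes called lower and higher in PC9-AMG against both other lines. Each reads 5′ to 3′ on the gene's strand. Capitals mark the NF-Y box, written ATTGG where it lies on the other strand, and in SREBF2 also the sterol response element.
IDI1: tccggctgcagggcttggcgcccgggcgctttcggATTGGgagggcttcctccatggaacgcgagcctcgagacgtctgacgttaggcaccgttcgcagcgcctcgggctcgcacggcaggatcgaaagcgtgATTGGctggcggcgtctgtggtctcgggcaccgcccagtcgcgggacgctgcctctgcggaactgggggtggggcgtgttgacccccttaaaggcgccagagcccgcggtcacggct
MSMO1: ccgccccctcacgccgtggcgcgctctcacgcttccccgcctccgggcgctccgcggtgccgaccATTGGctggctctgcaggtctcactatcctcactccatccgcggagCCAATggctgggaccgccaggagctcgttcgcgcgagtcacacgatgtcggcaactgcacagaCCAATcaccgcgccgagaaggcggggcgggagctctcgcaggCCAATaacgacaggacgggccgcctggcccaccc
SREBF2: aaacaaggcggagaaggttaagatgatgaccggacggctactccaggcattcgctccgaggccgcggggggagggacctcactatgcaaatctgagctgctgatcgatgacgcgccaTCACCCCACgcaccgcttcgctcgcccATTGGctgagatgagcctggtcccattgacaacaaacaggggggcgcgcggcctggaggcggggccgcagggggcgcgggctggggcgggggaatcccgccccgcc
INSIG2: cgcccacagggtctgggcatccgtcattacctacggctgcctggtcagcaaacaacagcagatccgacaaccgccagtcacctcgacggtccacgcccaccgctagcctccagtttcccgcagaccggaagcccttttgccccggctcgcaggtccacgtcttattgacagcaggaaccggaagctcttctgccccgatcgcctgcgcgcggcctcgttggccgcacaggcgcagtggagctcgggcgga
STARD4: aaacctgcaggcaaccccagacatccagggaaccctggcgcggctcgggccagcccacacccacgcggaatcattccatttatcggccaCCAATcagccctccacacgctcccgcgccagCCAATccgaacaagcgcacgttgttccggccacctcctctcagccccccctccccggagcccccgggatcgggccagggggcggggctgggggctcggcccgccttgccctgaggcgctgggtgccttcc

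The shown stretch of MSMO1 holds 4 NF-Y boxes, those of IDI1 and STARD4 hold 2 each, SREBF2 holds 1 and INSIG2 none. In SREBF2 the sterol response element begins at position -133 from the start site and the NF-Y box at -106. Across the 24 genes, an NF-Y box was found for 11 of the 14 that rose in PC9-BrM4 against PC9, for 6 of the 9 not called there, and for 0 of 1 that fell (ABCA1). Against PC9-BrM4, it was found for 10 of the 11 that were lower in PC9-AMG and for 6 of the 12 not called.

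PC9-BrM4 was first set against PC9, a derivative against the parent line in the same culture. Most enzymes of the pathway were higher in PC9-BrM4: 17 of the 27 genes rose, all of them enzymes, and 1 fell, the exporter ABCA1. Over all tested genes, 9.89% were called higher and 6.45% lower. The median difference of the 27 genes was 0.50 on the log2 scale, against 0.09 over all tested genes. Their summed level was 1133 and 1138 TPM in the PC9 libraries and 1663 and 1579 TPM in the PC9-BrM4 libraries, 1.43-fold higher by the means. In PC9-AMG it was 1225 and 1221 TPM, 1.08-fold of PC9.

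**Figure D1:**
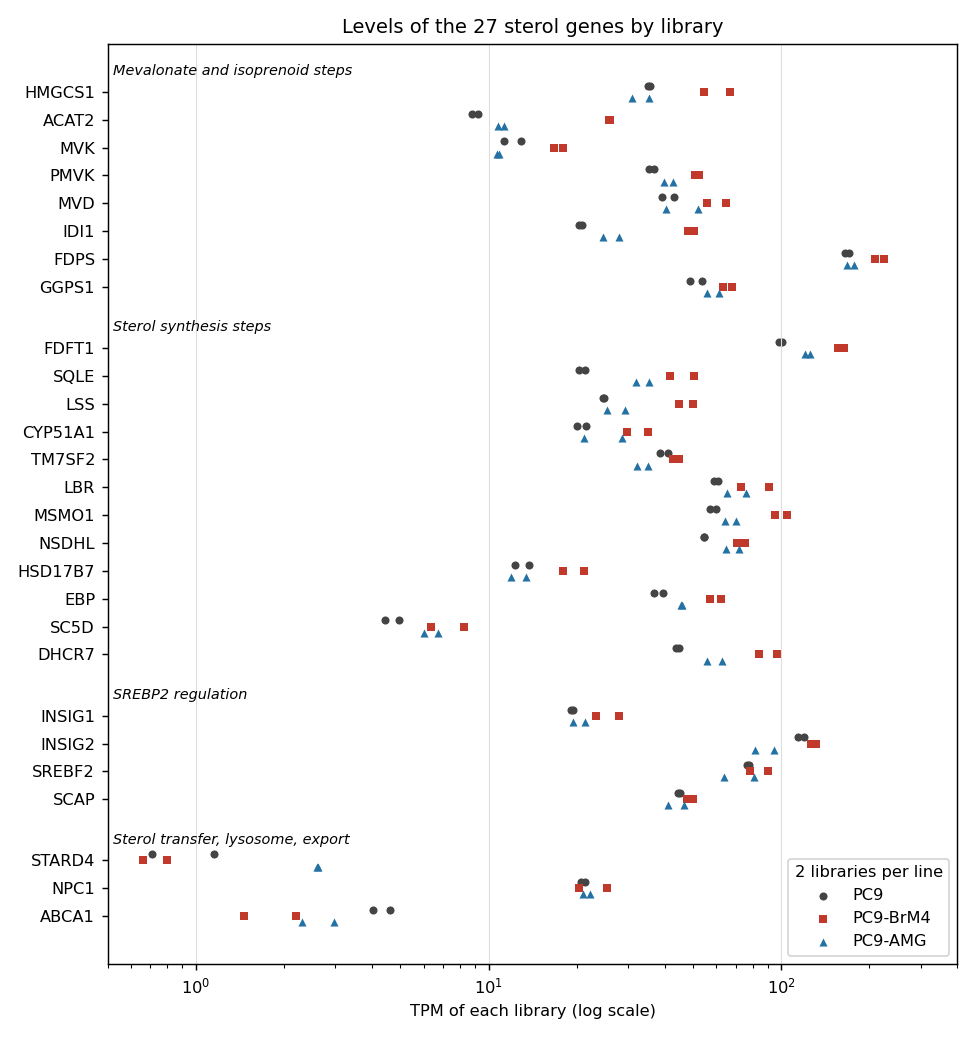
TPM of each of the 27 genes in each of the 6 libraries, on a log axis, grouped by role, with 2 points per line. In the mevalonate and sterol rows the PC9-BrM4 squares lie to the right of the PC9 circles, while the PC9-AMG triangles lie mostly near the circles. A difference of means above 0 in PC9-BrM4 against PC9 was found for 25 of the 27 genes and for 9018 of all 14627 tested genes. How many of all tested genes had no overlap between the libraries of these lines was not counted.

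Of the 8 mevalonate and isoprenoid genes, 7 rose in PC9-BrM4 and 0 fell, with a median difference of 0.52. ACAT2, the cytosolic thiolase that joins acetyl-CoA units at the start of the pathway (chromosome 6, 159761957 to 159779112, hg38), stood at 8.76 and 9.22 TPM in PC9, 26.0 and 25.7 TPM in PC9-BrM4 and 11.3 and 10.8 TPM in PC9-AMG. Both PC9-BrM4 libraries were far above the other 4. Its difference from PC9 was 1.43 ± 0.13 (SE; 2 libraries per line; limma adjusted p = 0.000126), the largest of the 27. The ACAT2 gene model shares 615 bases with TCP1 on the opposite strand, which was at 130 to 162 TPM and was not called (0.23, limma adjusted p = 0.162). On the same strand, a model named MIR7641-2 overlaps ACAT2 over 17156 bases. That name was listed at 6.78 and 8.58 TPM in PC9, 10.4 and 11.4 TPM in PC9-BrM4 and 13.2 and 9.98 TPM in PC9-AMG. The part of reads of TCP1 or MIR7641-2 in the ACAT2 values was not tested. ACAT1, the mitochondrial thiolase, differed by 0.39 and was not called (limma adjusted p = 0.0681).

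IDI1, which converts isopentenyl diphosphate to its reactive isomer (chromosome 10, 1040024 to 1049121), stood at 20.9 and 20.3 TPM in PC9, 50.2 and 48.1 TPM in PC9-BrM4 and 24.6 and 27.8 TPM in PC9-AMG. The order of the lines was the same as for ACAT2, with no overlap between any pair of lines. Its difference between PC9-BrM4 and PC9 was 1.21 ± 0.12 (SE; limma adjusted p = 0.000172). The antisense model IDI2-AS1, which overlaps it over 4178 bases, did not pass 1.55 TPM in any library. HMGCS1, which makes HMG-CoA (chromosome 5, 43287470 to 43313512), stood at 35.1 and 35.5 TPM in PC9, 66.9 and 54.4 TPM in PC9-BrM4 and 30.9 and 35.4 TPM in PC9-AMG. PC9-BrM4 was again the high line, and PC9-AMG overlapped PC9. HMGCS1 differed from PC9 by 0.76 ± 0.13 in PC9-BrM4 (SE; limma adjusted p = 0.00444).

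MVK, PMVK and MVD, the kinases and the decarboxylase that turn mevalonate into isopentenyl diphosphate, rose by 0.48, 0.50 and 0.54. The call of PMVK held under all 13 other settings, that of MVD under 9 and that of MVK under 5. MVK also lost its call whichever of the 6 libraries was left out. FDPS, which makes farnesyl diphosphate and was the highest of the 27 genes in every line, stood at 166 and 170 TPM in PC9, 209 and 225 TPM in PC9-BrM4 and 177 and 168 TPM in PC9-AMG. In PC9-BrM4 it rose by 0.37 ± 0.09 (SE; limma adjusted p = 0.0192). GGPS1, which leads away from sterols to geranylgeranyl diphosphate, was not called, with 53.8 and 48.7 TPM in PC9 and 68.0 and 63.2 TPM in PC9-BrM4, a difference of 0.35 (95% interval 0.10 to 0.60; limma adjusted p = 0.0579).

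Of the 12 genes of the sterol steps, 10 rose and 0 fell, with a median difference of 0.62, and their summed level was 1.59-fold that of PC9. SQLE, squalene epoxidase, a rate-controlling oxygenase (chromosome 8, 124998478 to 125022283), stood at 21.3 and 20.3 TPM in PC9, 50.4 and 41.8 TPM in PC9-BrM4 and 31.8 and 35.2 TPM in PC9-AMG. Its difference between PC9-BrM4 and PC9 was 1.10 ± 0.13 (SE; limma adjusted p = 0.000493). SQLE is the gene of the 27 that was called in all 3 comparisons: lowest in PC9, intermediate in PC9-AMG and highest in PC9-BrM4. Its call between PC9-AMG and PC9-BrM4 held under 6 of 13 other settings of the fit, and that between PC9-AMG and PC9 under 11. DHCR7, which carries out the last reduction to cholesterol on a branch of the pathway (chromosome 11, 71434411 to 71448431), stood at 43.6 and 44.8 TPM in PC9, 96.7 and 84.1 TPM in PC9-BrM4 and 62.6 and 56.0 TPM in PC9-AMG. It rose by 1.01 ± 0.11 in PC9-BrM4 (SE; limma adjusted p = 0.000344).

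LSS, which closes the ring to lanosterol, went from 24.8 and 24.7 TPM in PC9 to 49.9 and 44.6 TPM in PC9-BrM4, with 29.2 and 25.4 TPM in PC9-AMG, a rise of 0.90 in PC9-BrM4. The 32 tested genes within 25 places of LSS on its chromosome had a median difference of 0.33, the highest around any of the 27 genes. FDFT1, squalene synthase at the entry to the sterol branch, went from 101 and 97.9 TPM in PC9 to 164 and 156 TPM in PC9-BrM4, with 121 and 125 TPM in PC9-AMG, a rise of 0.68 in PC9-BrM4. MSMO1, which with NSDHL and HSD17B7 removes methyl groups from the sterol ring, went from 59.7 and 57.1 TPM to 104 and 95.3 TPM, with 64.4 and 70.3 TPM in PC9-AMG. Its rise of 0.76 in PC9-BrM4 was larger than those of NSDHL, 0.42, and HSD17B7, 0.55, although these were not tested against each other. HSD17B7P2, a pseudogene close in sequence to HSD17B7, was at 2.55 to 6.16 TPM, so that reads could be split between them. The pseudogene differed by 0.53 in PC9-BrM4 against PC9 and was not called (limma adjusted p = 0.175). In PC9-AMG it differed by -0.27 from PC9, not called, and by -0.79 from PC9-BrM4, called lower (limma adjusted p = 0.0470). The part of its reads in the HSD17B7 values was not tested.

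CYP51A1, the lanosterol demethylase, rose by 0.62 and EBP, the sterol isomerase, by 0.63. The neighbours of CYP51A1 on chromosome 7 had a median difference of -0.18, so this gene and its neighbours differed in direction. LBR and TM7SF2 are a pair of reductases that act on the same intermediate, and LBR is also a protein of the nuclear envelope. LBR rose by 0.43 (95% interval 0.14 to 0.72, limma adjusted p = 0.0479), a call that held under 4 of 13 other settings. TM7SF2 was not called, with 38.5 and 41.0 TPM in PC9 and 42.6 and 44.7 TPM in PC9-BrM4 (0.13, 95% interval -0.12 to 0.38). LBR and TM7SF2 were not tested against each other. SC5D, a desaturase near the end of the pathway and the lowest enzyme of the list, was at 4.42 and 4.95 TPM in PC9 and 8.21 and 6.39 TPM in PC9-BrM4. Its difference of 0.54 was as large as that of MVD but was not called (95% interval 0.13 to 0.95; limma adjusted p = 0.0730), at a coverage of 1.17 to 2.09 reads per base.

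None of the 4 regulators was called in this comparison. SREBF2, which encodes SREBP2, stood at 76.3 and 77.7 TPM in PC9, 89.8 and 78.3 TPM in PC9-BrM4 and 80.9 and 63.8 TPM in PC9-AMG. Its difference between PC9-BrM4 and PC9 was 0.12 (95% interval -0.17 to 0.41), and that of SCAP was 0.12 (-0.13 to 0.37). INSIG1, which is itself a target of SREBP2, stood at 19.1 and 19.4 TPM in PC9, 27.8 and 23.3 TPM in PC9-BrM4 and 19.4 and 21.4 TPM in PC9-AMG. Both PC9-BrM4 values were above the other 4, and the difference of 0.39 was not called (95% interval 0.08 to 0.69, limma adjusted p = 0.0825). The 38 tested genes within 25 places of INSIG1 on chromosome 7 had a median difference of -0.22. INSIG2 differed by 0.14 (-0.09 to 0.37).

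ABCA1, the exporter that loads cholesterol onto apolipoproteins (chromosome 9, 104781003 to 104928246), stood at 4.61 and 4.02 TPM in PC9, 2.21 and 1.46 TPM in PC9-BrM4 and 2.97 and 2.31 TPM in PC9-AMG. It was the gene of the 27 that fell in PC9-BrM4, by 0.92 on the log2 scale (SE 0.22; limma adjusted p = 0.0214). Its coverage was low, 0.883 to 3.07 reads per base, and the call was lost without PC9 library 1, PC9 library 2 or PC9-BrM4 library 2 (limma adjusted p up to 0.144). NPC1, the lysosomal cholesterol exporter, stood at 21.3 and 20.6 TPM in PC9 and 25.5 and 20.3 TPM in PC9-BrM4 and was not called (0.11, 95% interval -0.20 to 0.43).

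**Figure D2:**
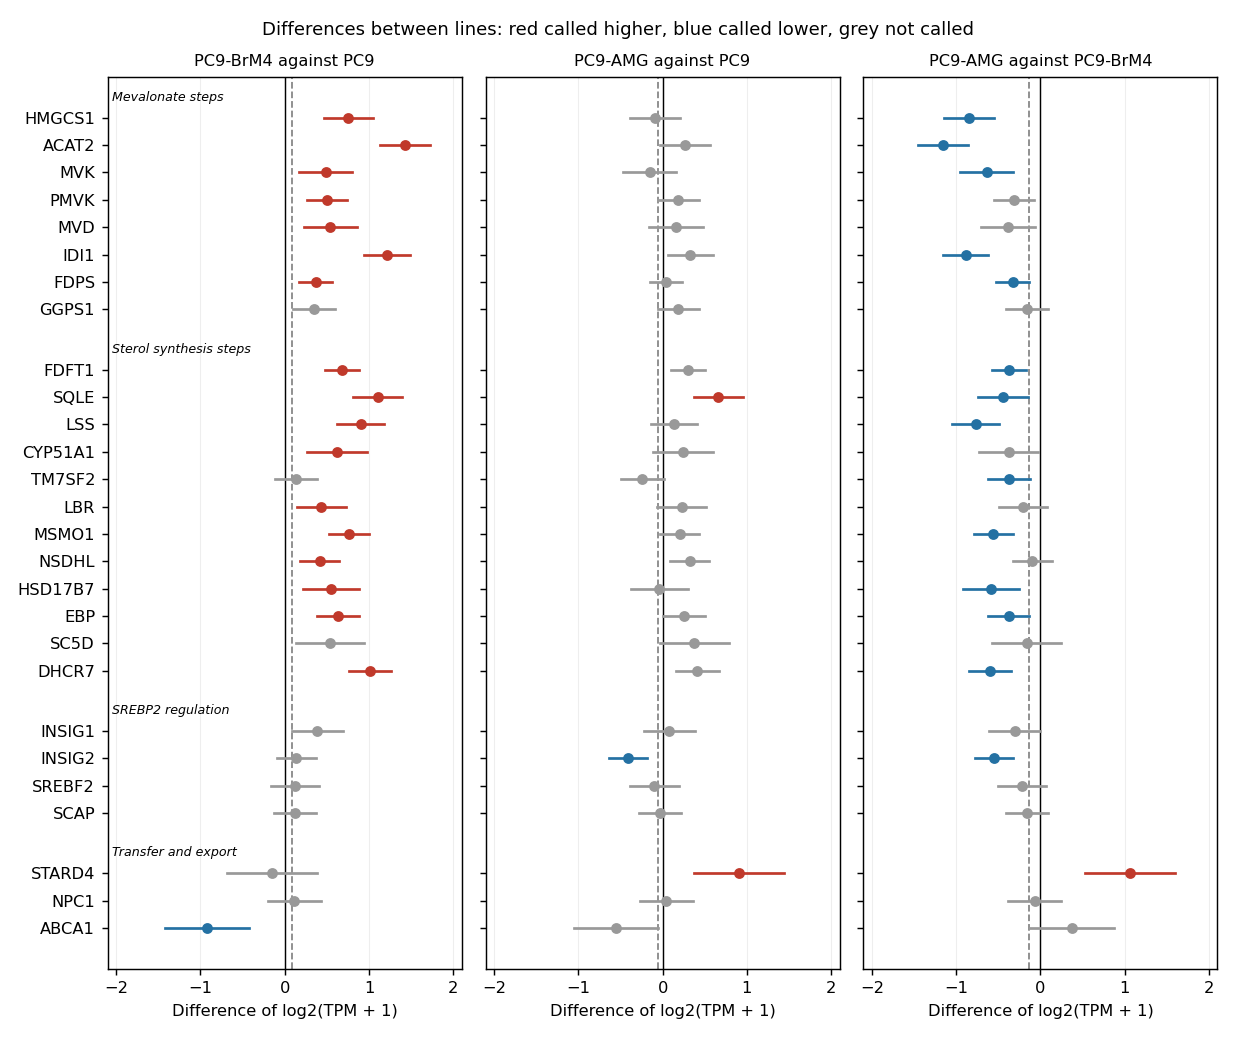
Difference of log2(TPM + 1) with its 95% interval for the 27 genes in the 3 comparisons; red points were called higher, blue lower and grey not called, and the dashed line is the median of all tested genes. The 17 red points of the left panel are all mevalonate or sterol enzymes, and the 14 blue points of the right panel are 5 mevalonate genes, 8 sterol genes and INSIG2.

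Library 1 of PC9-BrM4 was above library 2 for 20 of the 27 genes, against 66.9% of all tested genes. The calls of HMGCS1, ACAT2, IDI1, FDFT1, SQLE, LSS, MSMO1 and DHCR7 held under all 13 other settings and without each of the 6 libraries in turn. Without PC9 library 1 the count of called genes was 8 and without PC9 library 2 it was 9, the genes lost being among MVK, PMVK, MVD, FDPS, CYP51A1, LBR, NSDHL, HSD17B7, EBP and ABCA1 (limma adjusted p between 0.0693 and 0.357). Without PC9-BrM4 library 1 the calls of MVK, MVD, CYP51A1, LBR, NSDHL and HSD17B7 were lost, without PC9-BrM4 library 2 those of MVK, MVD, FDPS, CYP51A1, HSD17B7 and ABCA1, and without either PC9-AMG library those of MVK and LBR. Centring each library on its median gave 10 higher and 1 lower of the 27, beside 917 higher and 1293 lower of all tested genes in place of 1446 and 943.

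PC9-AMG was set against the same PC9 libraries. Here most of the 27 genes were not called: SQLE and STARD4 rose and INSIG2 fell. Over all tested genes, 3.67% were called higher and 3.82% lower. The median difference of the 27 was 0.19, against -0.05 over all tested genes. Of the 12 sterol genes 1 rose, and of the 8 mevalonate genes 0 were called, with medians of 0.25 and 0.17.

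SQLE was 1.61-fold higher by the means of TPM, 33.5 ± 2.43 against 20.8 ± 0.728 (SD, n = 2), a difference of 0.66 ± 0.13 on the log2 scale (SE; limma adjusted p = 0.0194). The call did not hold without PC9 library 1 or 2 or without PC9-AMG library 1 or 2 (limma adjusted p up to 0.161). STARD4, a soluble carrier of cholesterol between membranes (chromosome 5, 111496035 to 111512597), stood at 1.15 and 0.707 TPM in PC9, 0.797 and 0.659 TPM in PC9-BrM4 and 2.59 and 2.62 TPM in PC9-AMG. Both PC9-AMG libraries were above the other 4. STARD4 rose by 0.91 ± 0.24 (SE; limma adjusted p = 0.0490), at a coverage of 0.338 to 1.66 reads per base, the lowest of the 27. It reached 1 TPM in both PC9-AMG libraries and in 1 of the other 4, so it passed the filter of 1 TPM in 2 libraries through the line in which it is high, and with no filter its call was lost against PC9 (limma adjusted p = 0.0665). Its mean level was also the lowest of the 27 in each line.

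INSIG2, which holds the SCAP and SREBP2 complex in the endoplasmic reticulum (chromosome 2, 118088474 to 118110021), stood at 115 and 120 TPM in PC9, 131 and 127 TPM in PC9-BrM4 and 81.5 and 94.3 TPM in PC9-AMG. It was among the highest of the 27 genes in each line, and both PC9-AMG values lay below the other 4. In PC9-AMG it fell by 0.41 on the log2 scale against PC9 (SE 0.10; limma adjusted p = 0.0404). The calls of INSIG2 and STARD4 against PC9 were lost whichever of the 6 libraries was left out (limma adjusted p between 0.0554 and 0.303), and that of INSIG2 with median centring (0.109). DHCR7 was 0.41 higher and not called (95% interval 0.16 to 0.67, limma adjusted p = 0.0556), and stayed uncalled under 7 of the 13 other settings. It was called with median centring among others. Median centring gave 4 higher and 0 lower of the 27, beside 685 higher and 436 lower of all genes in place of 537 and 559. FDFT1, NSDHL and IDI1, with differences of 0.30, 0.32 and 0.33, were not called (limma adjusted p = 0.0687, 0.0896 and 0.123). NSDHL was called with median centring and with FPKM, and FDFT1 with FPKM.

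**Figure D3:**
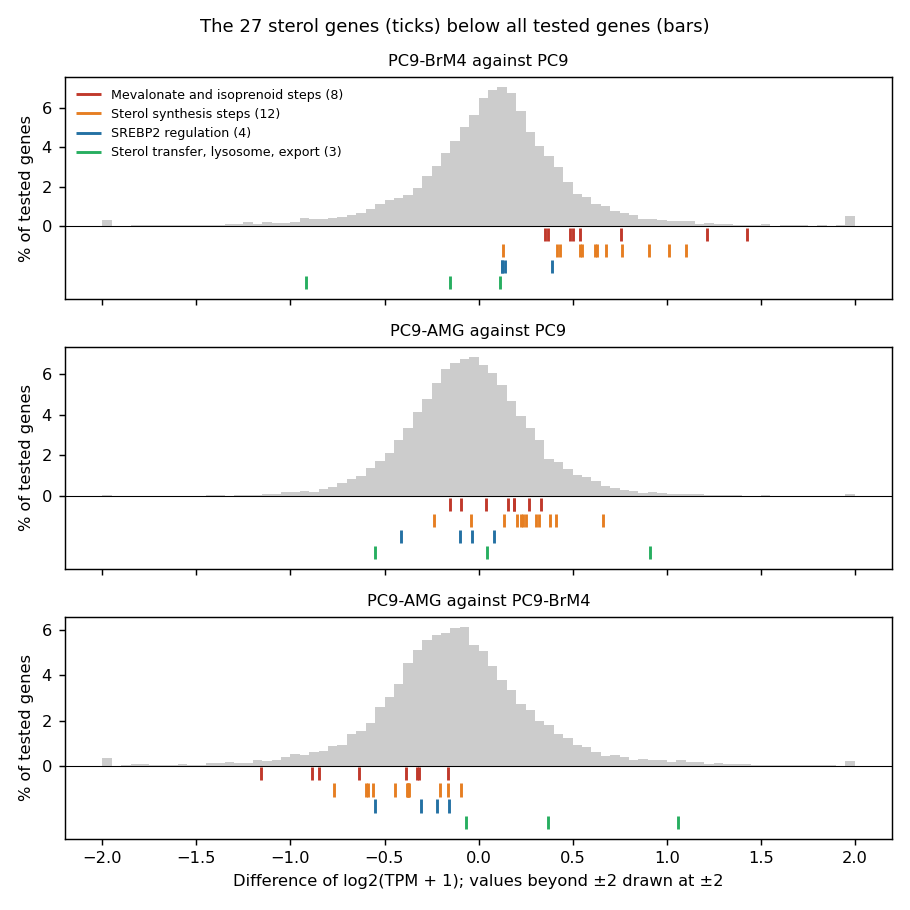
Bars give the percent of all 14627 tested genes in each class of difference of log2(TPM + 1), and ticks below them mark the 27 genes by role, for the 3 comparisons. In the upper panel the mevalonate and sterol ticks lie to the right of the peak of the bars, from 0.13 to 1.43, and in the lower panel most lie to its left.

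PC9-AMG against PC9-BrM4 compares the derivatives with each other. Most enzymes were lower in PC9-AMG: 14 of the 27 genes fell and 1, STARD4, rose. Over all tested genes, 12.3% were called lower and 6.31% higher. The median difference of the 27 was -0.38, against -0.13 over all tested genes. By role, 5 of 8 mevalonate genes, 8 of 12 sterol genes and 1 of 4 regulators fell. PMVK, MVD, CYP51A1, LBR and NSDHL, which rose in PC9-BrM4 against PC9, were not called here. Both comparisons use the same PC9-BrM4 libraries, so their counts are not independent of each other.

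ACAT2 fell by 1.16 on the log2 scale (SE 0.13; limma adjusted p = 0.000481), IDI1 by 0.88 (SE 0.12; limma adjusted p = 0.00117), HMGCS1 by 0.85 (SE 0.13; limma adjusted p = 0.00240) and LSS by 0.77 (SE 0.12; limma adjusted p = 0.00299). These 4 were called under all 13 other settings and without each library in turn. MVK stood at 10.9 and 10.7 TPM in PC9-AMG against 16.7 and 17.9 TPM in PC9-BrM4, and HSD17B7 at 11.9 and 13.4 TPM against 17.9 and 21.3 TPM. For these, as for HMGCS1, TM7SF2, INSIG2, SREBF2 and SCAP, the mean of PC9-AMG was the lowest of the 3 lines, although for HMGCS1, HSD17B7, SREBF2 and SCAP its libraries overlapped those of PC9. For 18 genes the mean was highest in PC9-BrM4 and lowest in PC9, with PC9-AMG between them, and for ABCA1 it was highest in PC9 and lowest in PC9-BrM4; of these genes, SQLE was called between PC9-AMG and PC9. TM7SF2, at 35.0 and 32.1 TPM in PC9-AMG, fell by 0.37 on the log2 scale (SE 0.11; limma adjusted p = 0.0469), a call lost whichever of the 6 libraries was left out (limma adjusted p up to 0.135).

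The fall of INSIG2 against PC9-BrM4 was 0.55 on the log2 scale (SE 0.10; limma adjusted p = 0.00574), and the rise of STARD4 was 1.06 ± 0.24 (SE; limma adjusted p = 0.0148). The remaining 6 genes, GGPS1, SC5D, INSIG1, SREBF2, SCAP and NPC1, were called in none of the 3 comparisons. SREBF2 and SCAP differed from PC9-BrM4 by -0.22 (95% interval -0.51 to 0.07) and -0.16 (-0.41 to 0.09). Without PC9-BrM4 library 1 the count of called genes was 6, without PC9-AMG library 1 it was 9 and without PC9-AMG library 2 it was 8. The genes lost were FDPS, FDFT1, SQLE, TM7SF2, MSMO1, EBP, DHCR7, INSIG2 and STARD4 without PC9-BrM4 library 1, and were among MVK, FDPS, FDFT1, SQLE, TM7SF2, HSD17B7, EBP and STARD4 without a PC9-AMG library. STARD4 lost its call in each of these 3 cases (limma adjusted p up to 0.0698), and INSIG2 without PC9-BrM4 library 1 (0.0557). The calls of FDPS, FDFT1, SQLE, TM7SF2 and EBP were also lost without either PC9 library. Those of FDPS, TM7SF2, HSD17B7 and EBP were lost without PC9-BrM4 library 2. EBP thus lost its call whichever of the 6 libraries was left out. Median centring gave 7 lower and 1 higher of the 27, beside 1606 higher and 900 lower of all tested genes in place of 923 and 1797.

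A further 72 genes of sterol metabolism outside the 27 were followed in 7 lists, and 68 of them were tested. In PC9-BrM4 against PC9, 7 rose and 4 fell, beside 9.89% higher and 6.45% lower of all tested genes, with a median difference of 0.09, that of all tested genes also being 0.09. Against PC9, 3 rose and 3 fell in PC9-AMG (3.67% and 3.82% of all tested genes), with a median of -0.10. Against PC9-BrM4, 3 rose and 13 fell (6.31% and 12.3% of all tested genes), with a median of -0.17.

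**Figure D4:**
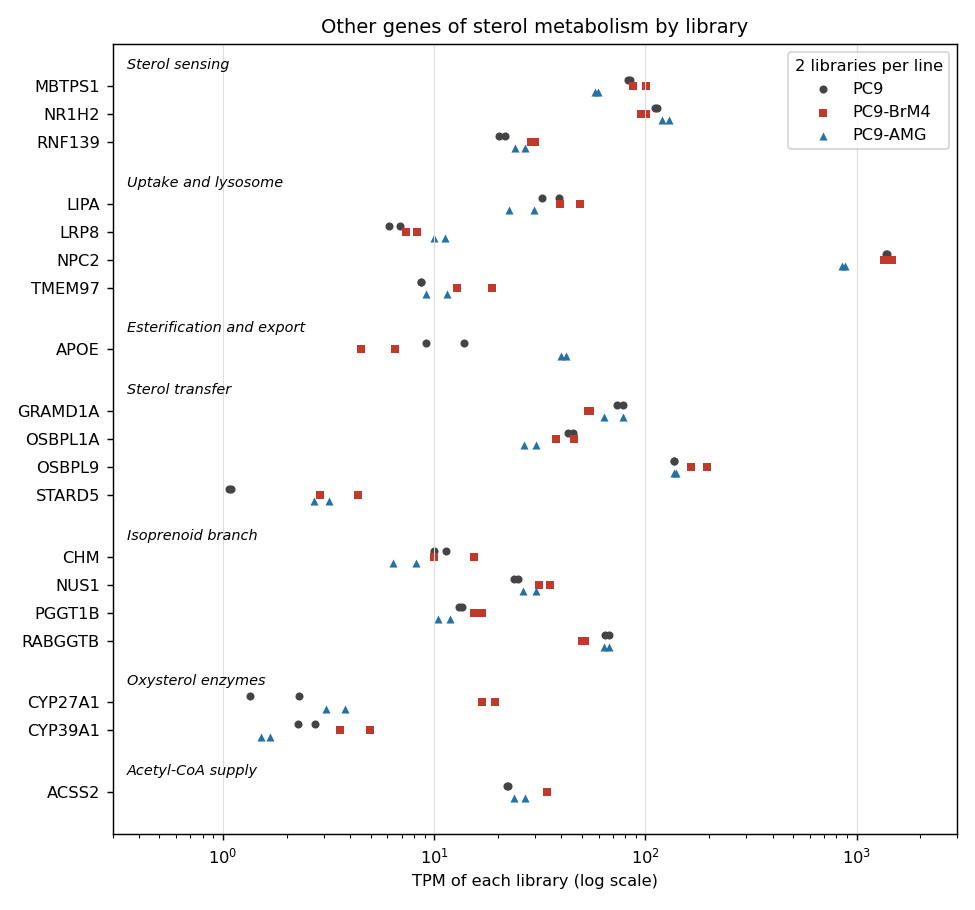
TPM of each library, on a log axis, for the 19 named genes of the 7 other sterol lists, with 2 points per line. CYP27A1 stands far to the right in PC9-BrM4, APOE in PC9-AMG, and NPC2 and MBTPS1 lie to the left in PC9-AMG.

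Of 5 tested genes of oxysterol and bile acid enzymes, CYP27A1 rose in PC9-BrM4. CYP27A1, the mitochondrial hydroxylase that makes an oxysterol from cholesterol, stood at 2.29 and 1.34 TPM in PC9, 16.8 and 19.5 TPM in PC9-BrM4 and 3.79 and 3.08 TPM in PC9-AMG. It was 2.78 ± 0.21 higher in PC9-BrM4 than in PC9 (SE; limma adjusted p = 3.45e-05) and fell by 2.11 in PC9-AMG against PC9-BrM4 (limma adjusted p = 0.000238), both called under every alternative run. CYP39A1, an oxysterol hydroxylase, was lower in PC9-AMG than in PC9-BrM4, 1.51 and 1.67 TPM against 4.95 and 3.56 TPM, a call lost without PC9-BrM4 library 1 and without either PC9-AMG library (limma adjusted p up to 0.0838).

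In the list of sterol esters and export, of which 7 of 8 were tested, APOE was called in all 3 comparisons. APOE, the apolipoprotein that carries lipid exported by cells, stood at 9.17 and 13.9 TPM in PC9, 4.52 and 6.51 TPM in PC9-BrM4 and 41.9 and 39.7 TPM in PC9-AMG. In PC9-AMG it was 1.76 ± 0.21 higher than in PC9 (SE; limma adjusted p = 0.00245) and 2.70 ± 0.21 higher than in PC9-BrM4 (SE; limma adjusted p = 4.98e-05). In PC9-BrM4 it fell by 0.93 on the log2 scale against PC9, where ABCA1, which loads lipid onto it, fell by 0.92. The call against PC9 was lost without PC9-AMG library 2 (limma adjusted p = 0.0522), and that of the fall without PC9 library 2 or PC9-BrM4 library 1 (limma adjusted p up to 0.139). Astrocytes are a known source of APOE. The astrocyte list summed higher in PC9-AMG (30.3 to 34.0 TPM against at most 23.7 TPM in the other lines). Most of that sum was ALDH1L1, with means of 31.2 TPM in PC9-AMG, 22.5 in PC9 and 19.1 in PC9-BrM4. Of the 8 markers, 1 was at 1 TPM or more in both PC9-AMG libraries, 1 in PC9 and 2 in PC9-BrM4. GFAP and S100B were at 0 in all 3 lines. The part of astrocyte RNA in the APOE values was not tested.

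Of 12 tested genes of uptake and the lysosome, 5 fell in PC9-AMG against PC9-BrM4 and 0 rose, beside 12.3% and 6.31% of all tested genes. NPC2, which hands cholesterol to NPC1 inside the lysosome, stood at 1389 and 1374 TPM in PC9, 1342 and 1476 TPM in PC9-BrM4 and 849 and 880 TPM in PC9-AMG. It fell by 0.68 in PC9-AMG against PC9 (limma adjusted p = 0.00194) and by 0.70 against PC9-BrM4 (limma adjusted p = 0.000288), under every alternative run, while NPC1 was not called. LIPA, the lysosomal acid lipase, fell by 0.74 against PC9-BrM4 (limma adjusted p = 0.0145), with 22.6 and 29.8 TPM against 49.0 and 39.3 TPM. The other 3 were the lysosomal membrane proteins LAMP1, LAMP2 and SCARB2, named after their values were seen, with falls of 0.46, 0.46 and 0.41. TMEM97, a binding partner of NPC1, rose by 0.77 in PC9-BrM4 against PC9, LRP8, an apolipoprotein E receptor, rose by 0.63 in PC9-AMG against PC9, and MYLIP, a ubiquitin ligase for lipoprotein receptors, named after its values were seen, fell by 0.60 in PC9-BrM4 against PC9 (limma adjusted p = 0.0245, 0.0450 and 0.0439). The calls of TMEM97 and LRP8 were lost without either PC9 library (limma adjusted p up to 0.126 and 0.328), and that of LIPA without PC9-BrM4 library 1 or PC9-AMG library 1 (up to 0.137).

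Among 13 genes of sterol sensing, MBTPS1, the protease that makes the first cut in SREBP2, stood at 84.1 and 83.0 TPM in PC9, 101 and 87.2 TPM in PC9-BrM4 and 59.8 and 57.4 TPM in PC9-AMG. In PC9-AMG it fell by 0.50 against PC9 (limma adjusted p = 0.0240) and by 0.67 against PC9-BrM4 (limma adjusted p = 0.00262). MBTPS1 and INSIG2, which act on SREBP2 in opposite directions, were thus both low in PC9-AMG. NR1H2, which encodes an LXR receptor, was 0.34 higher in PC9-AMG than in PC9-BrM4 (limma adjusted p = 0.0345), and RNF139, a ubiquitin ligase of the endoplasmic reticulum, rose by 0.47 in PC9-BrM4 against PC9 (limma adjusted p = 0.0309).

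Of 12 sterol transfer genes, STARD5, of the same protein family as STARD4, stood at 1.07 and 1.09 TPM in PC9, 4.34 and 2.88 TPM in PC9-BrM4 and 3.17 and 2.68 TPM in PC9-AMG. STARD5 was called higher than PC9 in both derivatives (1.13 and 0.92; limma adjusted p = 0.00960 and 0.0421), whereas STARD4 was called higher in PC9-AMG. OSBPL9 rose by 0.38 and GRAMD1A fell by 0.47 in PC9-BrM4 against PC9, and OSBPL1A fell by 0.61 in PC9-AMG against PC9; all 3 encode lipid transfer proteins of membrane contacts. Of 14 genes of the isoprenoid branch, NUS1, for dolichol synthesis, rose by 0.43 and RABGGTB, a subunit of the enzyme that adds geranylgeranyl to Rab proteins, fell by 0.37 in PC9-BrM4 against PC9. CHM, which presents Rab proteins to that enzyme, and PGGT1B, a subunit of another geranylgeranyl transferase, were lower in PC9-AMG than in PC9-BrM4 by differences of -0.71 and -0.49. ACSS2, which makes acetyl-CoA from acetate in the cytosol, stood at 22.0 and 22.4 TPM in PC9, 34.3 and 34.3 TPM in PC9-BrM4 and 26.99 and 23.9 TPM in PC9-AMG, and rose by 0.60 in PC9-BrM4 against PC9 (limma adjusted p = 0.00917), the same order of lines as most of the enzymes. Of the genes in this and the preceding paragraph, each call against PC9 was lost when a PC9 library was left out (limma adjusted p up to 0.306), except that of STARD5 in PC9-BrM4, which was lost without PC9-BrM4 library 1 (0.0630). Against PC9-BrM4, the calls of CHM and PGGT1B held without 1 of the 6 libraries and that of NR1H2 without 2.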

How the data were processed

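Stranded messenger RNA libraries of total RNA were sequenced, per the labels' protocols; HISAT2 2.1.0, StringTie 1.3.4d and hg38 come from the submitters' processing notes, and the annotation and whether counting used strand are not given in the sources used here. TPM and FPKM per gene were computed by the authors and deposited for each library. Coverage, a signal in reads per base, stands beside them per the file headers. TPM was also deposited over all libraries; the 27 genes had the same values there. TPM of 1406 genes with several rows was summed.

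limma 3.58.1 (R 4.3.3) was fitted on log2(TPM + 1) of genes reaching 1 TPM in 2 or more libraries, with 1 mean per line. All 6 libraries entered the fit, with a variance trend (3 residual, 6.81 prior degrees of freedom). Tests were two-sided and adjusted over 14627 genes. The fit was run on simulated data with the same spread for every gene, unlike these data, so that run cannot show how it handles genes of low level. The 3 comparisons share libraries. The members and lists were chosen with earlier results of these data known. All 27 members could be named, and of each other list up to 4 called genes with the largest differences. Alternatives covered scaling, pseudocount, filter, unit, source table, variance model, samples fitted, a replicate block and leaving out each library. Markers gave summed TPM. Promoter windows came from RefSeq (GRCh38.p14).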

Additional observations from a re-analysis of the deposited data

How the results depend on the processing

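Called were 18 of the 27 genes in PC9-BrM4 and 3 in PC9-AMG, each against PC9, and 15 in PC9-AMG against PC9-BrM4, and no called gene changed direction under any alternative run; where a call was lost, the cause was not tested. For PC9-BrM4 against PC9, 11 were called with median centring, 11 without the variance trend, and 8 to 16 without 1 library. In PC9-AMG against PC9, 0 were called with no filter, 5 with FPKM, 1 without the trend, 1 with only the 4 libraries compared, and 0 to 1 without 1 library. For PC9-AMG against PC9-BrM4, 8 were called with median centring, 9 with FPKM, and 6 to 11 without 1 library. A filter at 5 TPM left out STARD4 and ABCA1. With the replicate number as a block, 17, 3 and 14 were called; deviations of same-numbered libraries correlated at 0.03, -0.04 and 0.0027 over 14627 genes, so the numbers were not taken as pairs.

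Over all tested genes, 1446 higher and 943 lower became 1088 and 1253 with quantile normalization, 560 and 367 without PC9 library 1, 525 and 367 without PC9 library 2, and 601 and 594 without PC9-BrM4 library 1. For PC9-AMG against PC9, 537 and 559 became 129 and 121 with no filter, 149 and 176 without the trend, 779 and 490 with FPKM, 99 and 61 without PC9 library 1, 74 and 57 without PC9 library 2, 133 and 236 without PC9-AMG library 1, and 79 and 73 without PC9-AMG library 2. For PC9-AMG against PC9-BrM4, 923 and 1797 became 685 and 1114 with no filter, 1326 and 1137 with quantile normalization, 1274 and 1210 with FPKM, 443 and 581 without PC9-BrM4 library 1, 528 and 1254 without PC9-AMG library 1, and 554 and 869 without PC9-AMG library 2.

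With 2 libraries per line and no read counts, counting error could not be set apart from other spread, and differences of STARD4, ABCA1 and SC5D rest on coverage of at most 3.07 reads per base. A line left with 1 library is assumed to vary like the other lines.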
